A study of Arabidopsis thaliana with 16 samples.

Results

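The RBP45, RBP47 and UBP1 genes of Arabidopsis thaliana encode related RNA-binding proteins of the nucleus and cytoplasm. The set described here holds the 10 loci RBP45A, RBP45B, RBP45C, RBP45D, RBP47A, RBP47B, RBP47C, RBP47C', UBP1A and UBP1B. They were listed by name and not by a cut on a measured value, but with earlier results of these data known. They make up 10 of 40421 loci and 18 of 61786 transcript entries in the count table. The counts of a locus are the sum of its transcripts.

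Total RNA was depleted of rRNA and sequenced in 16 libraries, 2 for each of 8 groups, and all seeds were of the Col-0 line or a mutant grown in the same way. The 6 Col-0 groups were dry seeds (DS), seeds kept wet in the cold and dark, which is stratification, for 24 h (S24) or 72 h (S72), and material moved to light and warmth for 6 h (L6), 26 h (L26) or 57 h (L57). At L26 radicles emerge and at L57 the cotyledons are green and fully open. The 2 other groups, hen2-4 and rrp4-2, carry mutations in a helicase that feeds RNA to the nuclear exosome and in a core subunit of that RNA-degrading complex, and were sampled at the L57 stage, so the reference for both is L57. Replicates are not described as separate cultures, so a p-value measures the spread between these libraries, which may be technical.

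The labels were checked first. HEN2 had 78.2 and 80.9 CPM (counts scaled to library size) in the libraries labelled hen2-4, against 17.8 and 17.8 CPM in L57, a log2 fold change of 2.16 ± 0.081 (SE, edgeR adjusted p = 8.22e-09). The level of HEN2 RNA was thus higher and not lower under that label, and the sources used here do not say where the hen2-4 lesion lies relative to the counted transcript. Below, hen2-4 names the libraries so labelled. The rrp4-2 allele is a single-base change, so the RRP4 level does not check that label (log2 fold change of rrp4-2 over L57 0.17, adjusted p = 0.359). The libraries hold 75618077 to 266418636 estimated counts. Those of S24, S72, hen2-4 and rrp4-2 hold 237727756 to 266418636, and those of DS, L6, L26 and L57 hold 75618077 to 112510105. Depth thus differed between the groups compared in S24 over DS, in L6 over S72 and in both mutants over L57. Thinning, described below, was run on genes and transcripts but not on isoform shares, where the part of depth was not tested. Transcripts of the chloroplast genome took 41.2 to 49.7% of the counts in the 6 libraries of hen2-4, rrp4-2 and L57, and 3.99 to 11.3% in the other 10. DS replicate 1 stood apart with 12.3% rRNA, where no other library exceeded 1.33%. S24 replicate 1 had the fewest transcripts at 0 counts of any library, 10165. S24 replicate 2 had 16478, and the S72 libraries, of similar depth, had 19929 and 20220. The part of this difference in the results for S24 was not tested. Of 6 mature seed markers such as the storage protein CRA1, 6 fell in L57 relative to DS (median log2 -11.7), and of 5 green seedling markers such as RBCS1A, 5 rose (median log2 10.4).

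Each of these proteins carries 3 RNA recognition motifs, the RNA-binding fold of many splicing and poly(A) factors. The UBP1 proteins were first described in Nicotiana as nuclear proteins that bind U-rich stretches of pre-mRNA, and the RBP45 and RBP47 proteins as their poly(U)- and poly(A)-binding relatives. RBP47B and UBP1 proteins are used as markers of plant stress granules, cytoplasmic bodies in which untranslated mRNA gathers. In the reference annotation, the coding sequences of RBP47C and RBP47C' give proteins that are 91.6% identical, those of RBP47A and RBP47B 79.5%, those of RBP45A and RBP45C 78.9%, and those of UBP1A and UBP1B 78.3%. RBP47C and RBP47C' are neighbours on chromosome 1, and their longest stretch of identical bases is 124, so reads of 125 bases could fall within it only in part. Their counts are estimates that share an uncertainty about where near-identical reads belong.

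The sequences below are shown because the isoform results turn on them. Isoform 2 of RBP47C and isoform 2 of RBP47C' keep intron 3, at chr1:17426097-17426209 and at chr1:17433942-17434024 (TAIR10.1, RefSeq, both on the + strand). Each intron is printed whole, 5′ to 3′, with the stop codon that it puts in frame in capitals.
RBP47C intron 3: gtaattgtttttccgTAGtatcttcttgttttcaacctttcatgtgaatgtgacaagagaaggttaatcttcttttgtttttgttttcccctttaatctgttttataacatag
RBP47C' intron 3: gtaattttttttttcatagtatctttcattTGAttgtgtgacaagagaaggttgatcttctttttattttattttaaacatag
Retention of these introns of 113 and 83 bases ends the reading frame after 310 residues in RBP47C.2, against 432 in RBP47C.1, and after 317 in AT1G47500.2, against 434 in AT1G47500.1. Thymine made up 48.7% of the RBP47C intron and 51.8% of the RBP47C' intron, more than in 92.9% and 97.7% of 134492 annotated introns.

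The 3 isoforms of RBP47A differ in the 5′ splice site of intron 5, on the - strand of chromosome 1. The last 12 exon bases are in capitals and the first 12 intron bases in lower case.
RBP47A.1: CCCAACAAACAGgtacaagaaaat
RBP47A.2: TCTGAAATAATAgtaatggttctg
RBP47A.3: TTATCTTTAGAGgttgtcgaagtt
The sites lie at chr1:18357959-18357982 for RBP47A.1, at chr1:18357631-18357654 for RBP47A.2, which adds 328 bases to the exon, and at chr1:18357533-18357556 for RBP47A.3, which adds 426 bases.

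The question put to the Col-0 series was how each gene's RNA changed on the way from dry seed to seedling. Levels of 1 gene across libraries are given in CPM scaled by TMM factors, and log2 fold changes come from 1 edgeR quasi-likelihood fit of all 16 libraries (SE after ±, p adjusted over all genes in the fit). Of the 10 genes, 10 passed the low-count filter. In a test of any difference among the 6 stages, 10 of 10 passed, where 92.3% of 28824 genes did. The F statistics ran from 23.3 for RBP45B to 560.0 for RBP47A.

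In S24 relative to DS, 3 of the 10 genes rose and 3 fell, where 53.6% of all genes were called in either direction. In S72 relative to S24, 8 rose and 1 fell (all genes 53.8%). In L6 relative to S72, 6 rose and 4 fell (all genes 64.8%), and in L26 relative to L6, 2 rose and 4 fell (all genes 58.3%). In L57 relative to L26, 10 of 10 fell, where 65.3% of all genes were called and 35.5% fell. The median log2 fold change of the 10 genes was -1.11 in that step, and -0.11 over all genes. The share of counts from the chloroplast genome was 41.2 and 43.4% in L57, against 10.4 and 11.3% in L26, and their part in this fall was not tested. In whole seeds and seedlings, fewer cells of a type and less RNA per cell cannot be told apart. Between the ends of the series, L57 over DS, 2 rose and 8 fell (all genes 78.2%, 40.5% up and 37.7% down). The median of all genes depended on the scaling: in place of TMM, library totals moved it by 0.57 (log2) in S24 over DS and by -0.65 in L57 over L26, and DESeq2 size factors by -0.15 and 0.16. Under library totals 10 genes rose and 0 fell in S24 over DS, and without organellar and rRNA features 6 rose and 0 fell, so that small changes in this step are given with their flips below. In L57 over L26, 8 of 10 fell under DESeq2 size factors and 0 rose. The shares of all genes called under these other scalings are not given here, so these counts cannot be set against them. In S24 over DS the median of all genes was 0.79 under library totals and 0.44 without organellar and rRNA features. In L57 over L26 it was 0.05 under DESeq2 size factors.

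**Figure D1:**
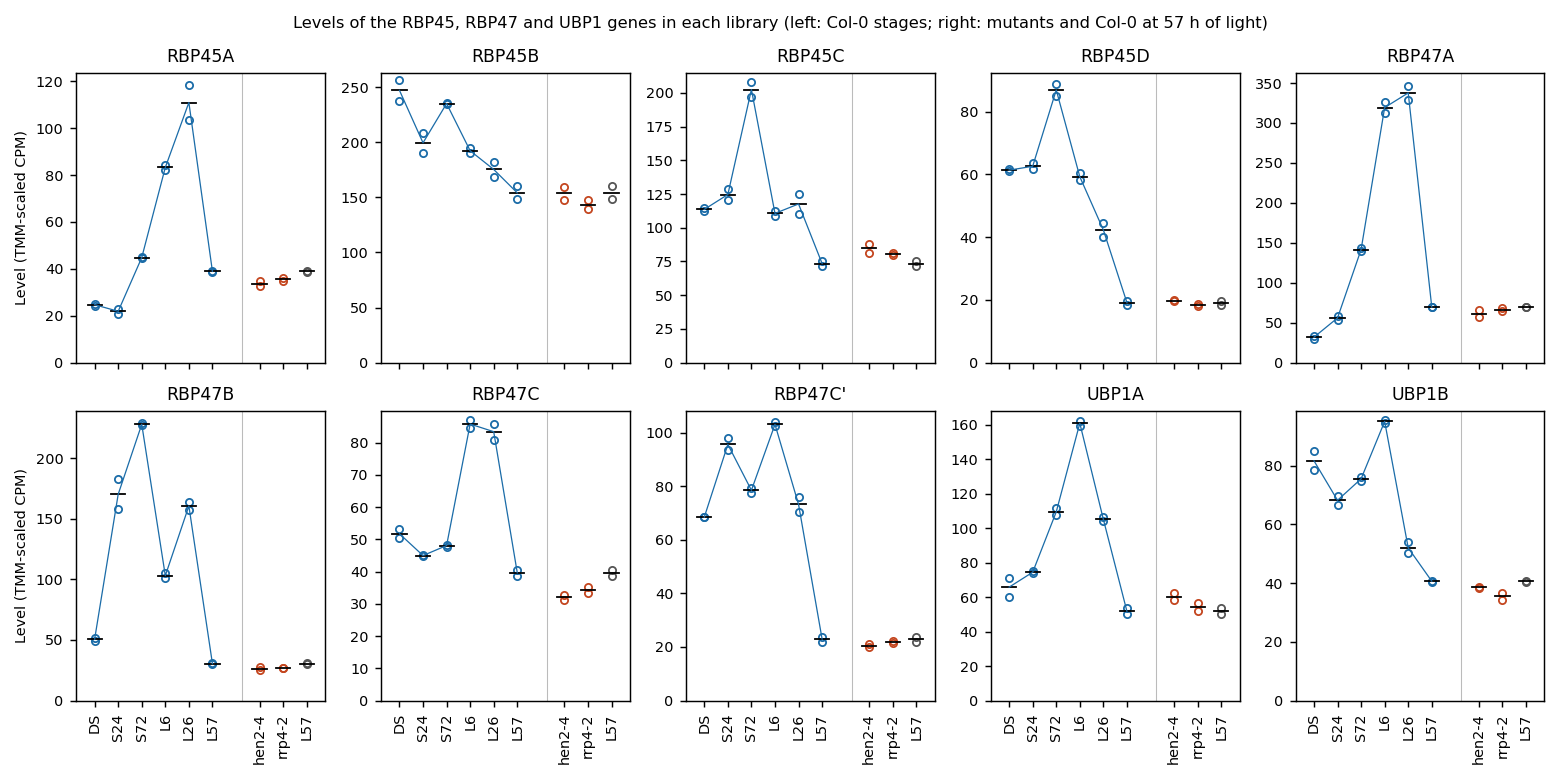
Level of each of the 10 genes in TMM-scaled CPM in the 16 libraries, on a linear axis from 0 for each gene, with 1 circle per library, a bar at each group mean, a line through the means of the 6 Col-0 stages, and hen2-4 and rrp4-2 beside L57 (drawn again). As a ratio of the highest to the lowest stage mean, RBP47A, RBP47B and RBP45A span the widest ranges and RBP45B the narrowest. All 10 genes are lower in L57 than in L26 in TMM-scaled CPM, RBP45B not under DESeq2 size factors.

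RBP45B (AT1G11650, chr1:3914774-3918243, + strand), whose transcript served the study as the reference of its RT-qPCR, was the most even of the 10. It had 238 and 257 CPM in DS, 190 and 209 in S24, 236 and 235 in S72, 194 and 190 in L6, 182 and 169 in L26, and 148 and 160 in L57. The highest stage mean exceeded the lowest 1.60-fold, a range of 0.68 (log2), while replicates had a pooled SD of 0.067. Among 10760 genes with a mean of at least 10 CPM, 1.66% had a smaller range, and the median range was 2.61. The range was 0.93 under library totals, 0.62 under DESeq2 size factors and 0.49 without organellar and rRNA features. Of 13 genes often used as RT-qPCR references, MON1 came nearest with 0.72, followed by CBP20 with 1.03, and ACT2, an actin, had the widest with 4.43. Under library totals UBC9, with 0.68, and MON1, with 0.78, ranged less than RBP45B.

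The step changes of RBP45B were small and depended on the scaling. It fell by 0.31 ± 0.075 in S24 over DS (adjusted p = 0.00331), rose by 0.24 in S72 over S24 (adjusted p = 0.0171), fell by 0.29 in L6 over S72 (adjusted p = 0.0038) and by 0.19 in L57 over L26 (adjusted p = 0.0431). The falls in S24 over DS and L6 over S72 had the other sign under library totals and in the deposited TPM, and the fall in L57 over L26 under DESeq2 size factors. The rise in S72 over S24 was lost without S24 replicate 1, S72 replicate 1 or S72 replicate 2 (log2 0.16, 0.25 and 0.25), and the fall in L57 over L26 without L26 replicate 1 or L57 replicate 1 (log2 -0.15 and -0.14). Its fall between the ends of the series, 0.68 ± 0.075 in L57 over DS (adjusted p = 1.63e-06), kept its sign under each of these scalings.

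**Figure D2:**
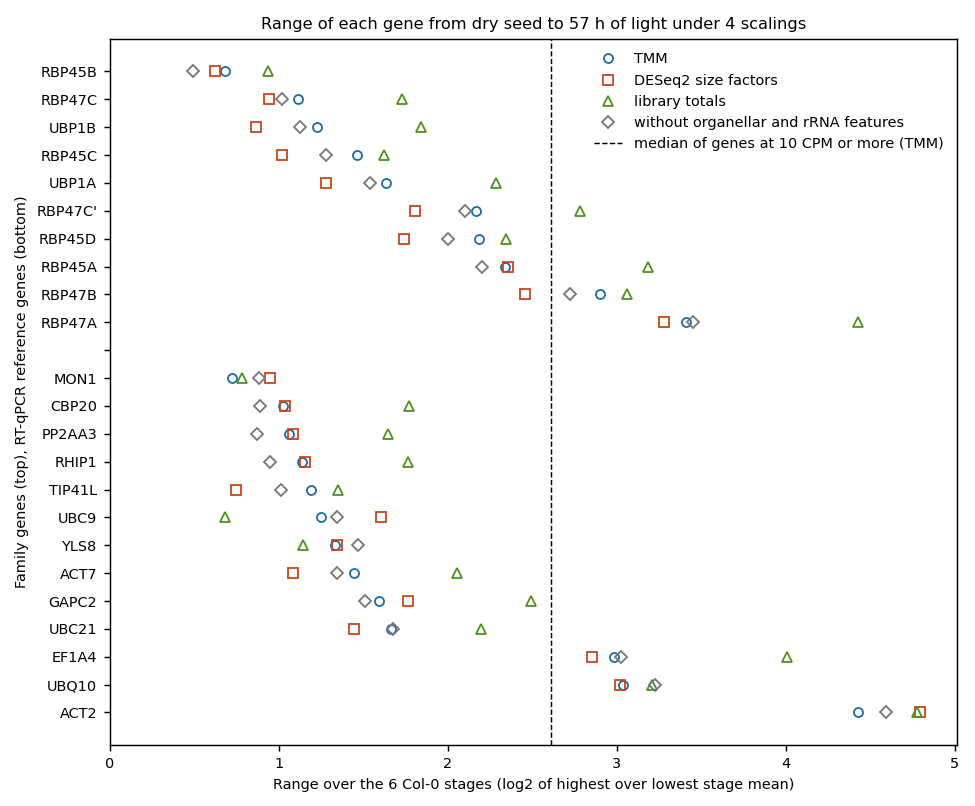
Range over the 6 Col-0 stages (log2 of the highest over the lowest stage mean) of the 10 genes and of 13 RT-qPCR reference genes, with 1 symbol for each of 4 scalings and a dashed line at the median of genes of at least 10 CPM. Under TMM RBP45B, at 0.68, has the smallest range drawn and RBP47A, at 3.41, the largest of the 10 genes.

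RBP45A (AT5G54900, chr5:22295369-22298395, + strand) had 24.3 and 25.1 CPM in DS, 20.7 and 23.1 in S24, 44.9 and 44.8 in S72, 84.3 and 82.3 in L6, 119 and 103 in L26, and 38.6 and 39.3 in L57. The 2 L26 libraries were the highest and the 2 S24 libraries the lowest, and no 2 stages overlapped. RBP45A rose by 1.03 ± 0.071 in S72 over S24 (adjusted p = 7.13e-08), by 0.89 in L6 over S72 and by 0.41 in L26 over L6, and fell by 1.51 ± 0.072 in L57 over L26 (adjusted p = 7.14e-10). Its log2 fold change of -0.18 in S24 over DS did not pass (adjusted p = 0.0571). It passed as a fall with DESeq2 size factors, in the DESeq2 Wald test, after thinning to the shallowest library and without S24 replicate 2 (log2 -0.32, -0.32, -0.20 and -0.30), and as a rise of 0.39 under library totals.

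RBP45C (AT4G27000, chr4:13554604-13557915, - strand), the closest relative of RBP45A, followed another course. It had 112 and 115 CPM in DS, 121 and 128 in S24, 197 and 208 in S72, 113 and 109 in L6, 125 and 110 in L26, and 71.9 and 75.0 in L57. It peaked at the end of stratification, with a rise of 0.70 ± 0.071 in S72 over S24 (adjusted p = 2.62e-06) and a fall of 0.87 ± 0.072 in L6 over S72 (adjusted p = 1.24e-07), while the libraries of S24, L26, DS and L6 overlapped in turn.

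RBP45D (AT5G19350, chr5:6518777-6521483, + strand) also peaked in S72, with 85.1 and 88.7 CPM, beside 61.1 and 61.6 in DS and 61.6 and 63.5 in S24. It had 60.4 and 58.1 CPM in L6, 44.6 and 40.0 in L26, and 18.5 and 19.8 in L57. Its fall in L57 over DS, by 1.68 ± 0.064 (adjusted p = 1.77e-11), was the deepest of the 10. Its 3′ end overlaps CPK34 on the other strand by 79 bases.

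RBP47A and RBP47B had the widest ranges of the 10. RBP47A (AT1G49600, chr1:18356799-18360447, - strand) had 30.1 and 33.6 CPM in DS, 58.0 and 53.9 in S24, 140 and 143 in S72, 326 and 313 in L6, 346 and 329 in L26, and 69.5 and 69.4 in L57. It rose in S24 over DS by 0.81 ± 0.082 (adjusted p = 1.76e-06), in S72 over S24 by 1.34 ± 0.081 (adjusted p = 2.37e-08) and in L6 over S72 by 1.17 ± 0.081 (adjusted p = 2.02e-08). The L26 libraries were 0.08 ± 0.080 above L6, which did not pass (adjusted p = 0.419). In L57 over L26 it fell by 2.28 ± 0.084 (adjusted p = 7.88e-11), and L57 remained 2.18-fold above DS.

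RBP47B (AT3G19130, chr3:6611182-6614107, - strand), a stress granule marker, had the largest rise of the 10 in S24 over DS. It had 49.5 and 51.8 CPM in DS, 158 and 182 in S24, 229 and 227 in S72, 105 and 101 in L6, 164 and 157 in L26, and 31.0 and 29.8 in L57. That rise was 1.75 ± 0.074 (3.36-fold, adjusted p = 5.02e-10). It then fell by 1.15 ± 0.072 in L6 over S72 (adjusted p = 8.64e-09), rose by 0.64 ± 0.072 in L26 over L6 (adjusted p = 4.61e-06) and fell by 2.40 ± 0.076 in L57 over L26 (adjusted p = 2.67e-11). Its 2 peaks, at S72 and L26, were on either side of L6, where RBP47A was already high.

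RBP47C (AT1G47490, chr1:17424473-17427475, + strand) had 50.3 and 53.2 CPM in DS, 45.1 and 44.8 in S24, 48.4 and 47.8 in S72, 87.0 and 84.6 in L6, 85.9 and 81.0 in L26, and 40.6 and 38.7 in L57. It rose by 0.83 ± 0.056 in L6 over S72 (adjusted p = 1.48e-08) and fell by 1.07 ± 0.056 in L57 over L26 (adjusted p = 1.69e-09). Its fall of 0.20 in S24 over DS (adjusted p = 0.00781) had the other sign under library totals, in TPM and without organellar and rRNA features.

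RBP47C' (AT1G47500, chr1:17432433-17435124, + strand) had 68.5 and 68.4 CPM in DS, 93.4 and 97.8 in S24, 77.6 and 79.5 in S72, 104 and 102 in L6, 76.2 and 70.3 in L26, and 23.9 and 22.0 in L57. It was the 1 gene that fell in S72 over S24 (log2 -0.28 ± 0.059, adjusted p = 0.00124), after a rise of 0.48 ± 0.060 in S24 over DS (adjusted p = 1.31e-05). In L57 over DS it fell by 1.58 ± 0.062 (adjusted p = 2.62e-11).

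UBP1A (AT1G54080, chr1:20183545-20187096, - strand) had 60.3 and 71.3 CPM in DS, 73.8 and 75.2 in S24, 107 and 112 in S72, 162 and 160 in L6, 106 and 104 in L26, and 49.9 and 53.6 in L57. It rose by 0.56 ± 0.077 in S72 over S24 and by 0.56 ± 0.077 in L6 over S72 (adjusted p = 4.42e-05 and 2.36e-05), then fell by 0.61 ± 0.077 in L26 over L6 and by 1.02 ± 0.078 in L57 over L26 (adjusted p = 1.33e-05 and 6.95e-08). Its fall of 0.35 in L57 over DS was lost when DS replicate 2 was left out (log2 -0.19) and had the other sign under library totals. Its 0.18 in S24 over DS did not pass, but did without the same library (log2 0.32), under library totals, without organellar and rRNA features and with a replicate block (log2 0.74, 0.41 and 0.18).

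UBP1B (AT1G17370, chr1:5951542-5955143, - strand) had 78.5 and 84.9 CPM in DS, 66.6 and 69.8 in S24, 74.9 and 76.1 in S72, 95.5 and 94.6 in L6, 53.9 and 50.1 in L26, and 40.4 and 40.9 in L57. Its largest step was the fall of 0.87 ± 0.059 in L26 over L6 (adjusted p = 3.89e-08). Its changes within the seed stages were small: -0.26 in S24 over DS had the other sign under library totals and in TPM, and 0.15 in S72 over S24 (adjusted p = 0.048) was lost when either S72 library or S24 replicate 1 was left out, and had the other sign without organellar and rRNA features. Leaving out DS replicate 2 also ended the calls of RBP45B, RBP47C and UBP1B in S24 over DS (log2 -0.24, -0.15 and -0.19).

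Levels of different genes were compared in the deposited TPM, which divides by transcript length. The 10 genes together had a mean of 403 TPM in DS, 712 in S24, 951 in S72, 1373 in L6, 1268 in L26 and 321 in L57. The mutants had a mean of 284 in hen2-4 and 278 in rrp4-2. The median gene moved in the same direction in TPM, by 0.58 (log2) in S24 over DS and by -1.17 in L57 over L26. In S72 over S24, L6 over S72 and L26 over L6 it moved by 0.10, 0.27 and -0.19. The changes of the sum are thus not specific to the 10 genes. Chloroplast transcripts also enter the total to which TPM is scaled. Shares within the 10 genes were therefore also taken, in which the scaling between libraries does not enter. RBP45B had the highest TPM of the 10 in all groups except L6 and L26, where RBP47A did. RBP45B made up 32.9 and 33.5% of the summed TPM in DS, 23.4 and 23.9% in S24, 20.7 and 20.3% in S72, 16.3 and 16.4% in L6, 15.5 and 15.5% in L26, and 30.2 and 31.4% in L57. RBP47A made up 3.30 and 3.48% in DS, 5.53 and 4.87% in S24, 9.75 and 9.81% in S72, 21.7 and 21.3% in L6, 23.4 and 23.9% in L26, and 11.1 and 10.7% in L57. RBP47B reached 17.6 and 19.0% in S24 and 18.3 and 17.8% in S72, and had 6.23 and 6.13% in DS and 5.73 and 5.32% in L57. The lowest member was RBP47A in DS, RBP45A in S24, RBP47C in S72, RBP45D in L6, L26, L57 and rrp4-2, and RBP47C' in hen2-4. In DS the ranges of RBP47A and RBP45A overlapped, as did those of RBP45D and UBP1B in L26 and of RBP45D and RBP47C' in L57 and rrp4-2. Counts per kb of transcript gave each gene the same place in each group as TPM did. Both are StringTie estimates from the same reads divided by length, so this is not a separate check of the order.

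**Figure D3:**
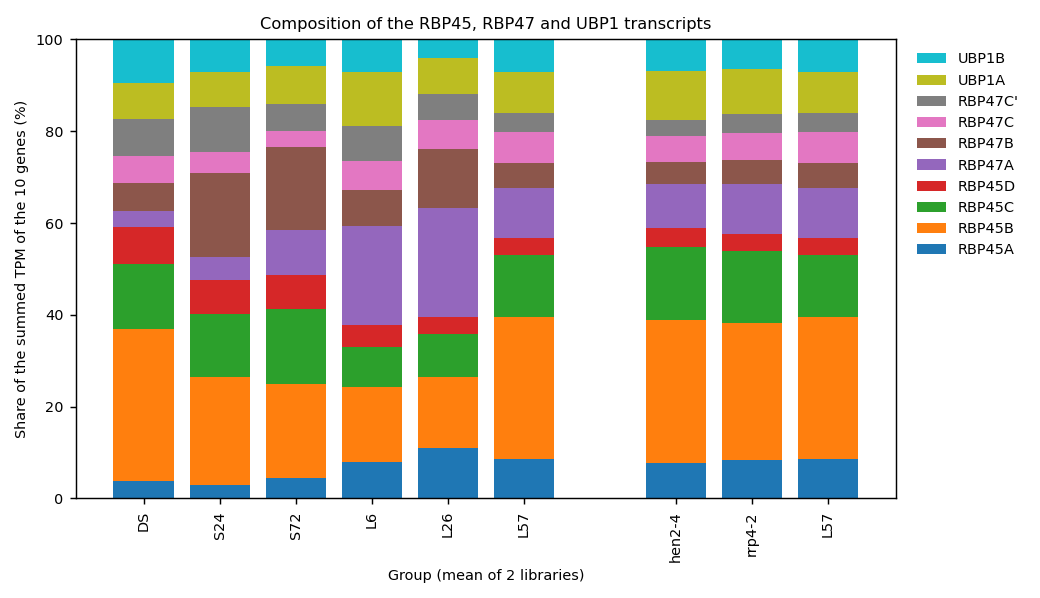
Share of each of the 10 genes in their summed TPM (%), as the mean of 2 libraries per group, for the 6 Col-0 stages and for hen2-4 and rrp4-2 with L57 beside them. The RBP45B share is 33.2% in DS, 15.5% in L26 and 30.8% in L57, while that of RBP47A is 3.39% in DS and 23.7% in L26.

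Paralogs exchanged places along the series. The TPM ratio of RBP47C' to RBP47C was 1.40 and 1.33 in DS, 2.17 and 2.29 in S24, 1.67 and 1.73 in S72, 1.23 and 1.24 in L6, 0.915 and 0.896 in L26, and 0.609 and 0.588 in L57. RBP47C' was thus the higher of these neighbours up to L6 and the lower from L26 on. The ratio of UBP1B to UBP1A was 1.31 and 1.19 in DS, 0.915 and 0.939 in S24, 0.709 and 0.692 in S72, 0.597 and 0.600 in L6, 0.517 and 0.489 in L26, and 0.823 and 0.756 in L57. The ratio of RBP47A to RBP45B was 0.1003 and 0.1039 in DS and 1.51 and 1.55 in L26. These ratios are descriptions and were not tested.

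Over the 8 group means of log2 CPM, the profiles most alike among the 10 were those of RBP45A and RBP47A (r = 0.949) and of RBP45D and RBP47C' (r = 0.940), and the least alike those of RBP45A and RBP45B (r = -0.145). These correlations rest on 8 groups that share the scaling, and are given without a test. Among 10760 genes of at least 10 CPM, the profile nearest to RBP45B was that of NF-YC3 (r = 0.993), a histone-fold subunit of NF-Y transcription factors, followed by AT4G33480 (r = 0.988) and NF-YC9, a paralog of NF-YC3 (r = 0.985). For RBP47A the nearest were AT1G63660 (r = 0.992), the ribosomal protein gene RS27A (r = 0.991) and EDA9 (r = 0.989), which encodes an enzyme of serine synthesis. For RBP47B they were COX10, ATRER1A and MNS1 (r = 0.995, 0.991 and 0.988), and for UBP1B GA3, KAO2 and NRAMP4 (r = 0.987, 0.984 and 0.982), of which GA3 and KAO2 act in gibberellin synthesis. For RBP45D the nearest were AT1G44960, AT4G27585 and ECT1, of the YTH family of m6A readers, (r = 0.998, 0.997 and 0.997). For RBP45A they were AT3G12390, AT3G13882 and mtACP2 (r = 0.994 to 0.995), for RBP45C AT1G48900, AT3G48380 and AT1G10590 (r = 0.985 to 0.988), for RBP47C AT3G05190, GAS41 and AT4G31810 (r = 0.987 to 0.996), for RBP47C' SDP1-LIKE, AT2G24990 and AT2G07677 (r = 0.993 to 0.997), and for UBP1A AT2G22400, AT5G27120 and the helicase gene STRS2 (r = 0.986 to 0.993).

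Isoforms were compared as the share of a transcript in the counts of its locus. The 18 transcripts hold the 2 of UBP1B, of which UBP1B.2 had 0 counts in all 16 libraries, and 13 transcripts of loci with at least 2 in the fit entered the share test. On the transcript level 17 of the 18 were in the fit. Of these, 9 were called in S24 over DS (all transcripts 32.6%; 5 without DS replicate 2) and 11 in L57 over L26 (all transcripts 36.2%). In S72 over S24 8 rose and 0 fell (all transcripts 13.1 and 10.4%), and in L6 over S72 7 rose and 5 fell (20.5 and 18.2%). In L26 over L6 2 rose and 4 fell (15.2 and 12.8%), and in L57 over DS 3 rose and 8 fell (32.1 and 25.7%). In hen2-4 over L57 0 rose and 1 fell (7.06 and 3.23%), and in rrp4-2 over L57 0 were called (5.62 and 2.22%). In the share test, edgeR's diffSpliceDGE, 3 of the 13 were called in S24 over DS, where 4.11% of 27568 transcripts were, and 1 in L57 over L26 (0.816%). In the other comparisons 0 of 13 were called by diffSpliceDGE, where it called 0.813% of transcripts in S72 over S24, 1.11% in L6 over S72, 0.348% in L26 over L6, 3.69% in L57 over DS, 0.646% in hen2-4 over L57, 0.678% in rrp4-2 over L57 and 0.189% in rrp4-2 over hen2-4. At an unadjusted p under 0.05 there was 1 in each of L6 over S72 and L26 over L6, 3 in L57 over DS and 0 in the other 4. A test chosen after the data were seen, in which each transcript and the rest of its locus are 2 counts per library, called 6 in S24 over DS (9.45% of all transcripts) and 0 in each other comparison, L57 over L26 included. In this test the 2 transcripts of a 2-transcript locus have the same p-value, so both of RBP47C and both of RBP47C' were called. The other calls were RBP47A.1 and RBP47A.2, so the 6 are not separate results. In a simulation of S72 over S24 with 21930 isoforms, described below, diffSpliceDGE called 21 unchanged isoforms beside 33 of 100 changed 16-fold. Its calls may thus include false ones. How many was not measured for S24 over DS or L57 over L26, where its calls among the 13 lie.

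The intron-retaining transcripts of the RBP47C pair rose in share with the first day of stratification. RBP47C.2 made up 46.4 and 40.5% of RBP47C counts in S24, against 6.85 and 8.16% in DS. It had 26.4 and 24.8% in S72, 19.9 and 8.16% in L6, 12.7 and 13.8% in L26, and 17.3 and 19.3% in L57, so both S24 libraries stood above all others. Its share rose in S24 over DS by 2.53 (log2, diffSpliceDGE adjusted p = 0.00181, at most 0.0439 over 7 alternatives). As a transcript it rose by 2.35 ± 0.46 in that step (adjusted p = 0.00274) while the spliced RBP47C.1 fell by 0.89 ± 0.10 (adjusted p = 9.11e-05).

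AT1G47500.2, isoform 2 of RBP47C' and the counterpart in the neighbouring gene, made up 24.3 and 21.6% of RBP47C' counts in S24, against 5.35 and 6.30% in DS. It had 18.2 and 22.1% in S72, 30.1 and 24.06% in L6, 19.9 and 17.4% in L26, and 12.5 and 23.2% in L57. The share rose in S24 over DS by 1.98 (adjusted p = 0.0134), a call that was lost without DS replicate 1, DS replicate 2 or S24 replicate 1 (adjusted p up to 0.127). As a transcript AT1G47500.2 rose by 2.48 ± 0.29 (adjusted p = 0.000111), and AT1G47500.1 had a log2 fold change of 0.22 ± 0.11 that did not pass (adjusted p = 0.182). The 2 introns are the ones printed above, and since they lie in near-identical neighbours, reads of one could be counted in the other.

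**Figure D4:**
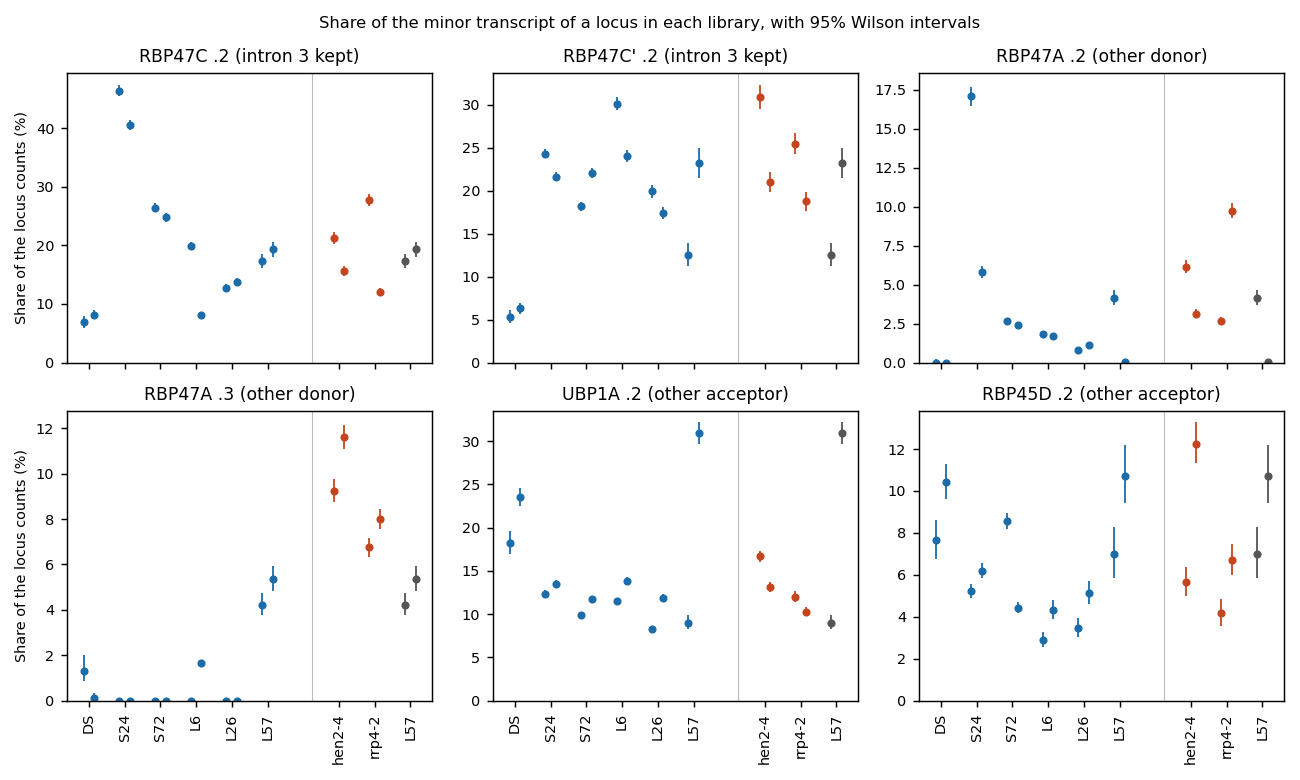
Share of the counts of its locus (%) taken by 6 minor isoforms in the 16 libraries, 1 point per library with its 95% Wilson interval, which covers counting error only, and with L57 drawn again beside the mutants. RBP47C.2 and AT1G47500.2, isoform 2 of RBP47C', are under 9% in both DS libraries and above 20% in both S24 libraries.

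RBP47A.2 and RBP47A.3, which use the shifted 5′ splice sites, were minor and uneven between replicates. RBP47A.2 had 17.1 and 5.78% of RBP47A counts in S24, against 0 of 1525 and 0 of 2789 counts in DS. Its change of share in S24 over DS passed (adjusted p = 0.024), and its scaled count was at least 136.5-fold higher in S24 than a floor of 3 counts per DS library. That bound was 65.3-fold without S24 replicate 1 and 207.6-fold without S24 replicate 2. The call was lost without DS replicate 1, DS replicate 2 or S24 replicate 1 (adjusted p up to 0.20). RBP47A.2 then had 2.699 and 2.389% in S72, 1.81 and 1.71% in L6, 0.833 and 1.13% in L26, and 4.14 and 0.0149% in L57. RBP47A.3 had 274 and 359 counts in L57, 4.23 and 5.35% of the locus, and was listed at 0 in both L26 libraries, a change of share that passed (adjusted p = 0.0267). Its scaled count in L57 was at least 167.4-fold above the floor in L26. Without either L26 library the call was lost (adjusted p up to 0.279). A 0 in these files is an estimate of how StringTie split the reads, and RBP47A.3 had 0 and 739 counts in the 2 libraries of L6, so replicates disagreed there too.

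The other minor isoforms gave no call by diffSpliceDGE. UBP1A.2, which starts exon 7 at a site 12 bases upstream, took 18.2 and 23.5% of UBP1A counts in DS, 8.23 to 13.9% in S24, S72, L6 and L26, and 9.01 and 31.0% in L57. RBP45D.2, whose exon 3 is 12 bases shorter, took 2.89 to 12.3% over the 16 libraries. RBP45B.1, which would end after 306 residues in place of 405, took 0.332 to 1.25%.

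The mutants were compared with L57 to ask which RNAs change when the nuclear exosome or its helicase is impaired. In the libraries labelled hen2-4, 2 of the 10 genes rose and 2 fell relative to L57, where 30.2% of all genes were called (19.6% up and 10.6% down). In rrp4-2, 0 rose and 2 fell (all genes 26.6%, 18% up and 8.54% down). The medians of the 10 genes were -0.12 in hen2-4 over L57 and -0.08 in rrp4-2 over L57, and those of all genes 0.08 and 0.09. These splits depended on the scaling, which moves all genes as well. DESeq2 size factors moved the median of all genes by -0.077 in hen2-4 over L57 and by -0.094 in rrp4-2 over L57. The shares of all genes called under the other scalings are not given here, so the next counts cannot be set against them. With DESeq2 size factors 0 rose and 6 fell in hen2-4, and 0 rose and 8 fell in rrp4-2. With library totals 0 rose and 3 fell in hen2-4, and 0 rose and 1 fell in rrp4-2. Without organellar and rRNA features 0 rose and 5 fell in hen2-4, and 0 rose and 4 fell in rrp4-2.

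RBP47C was lower in both mutants, at 31.1 and 32.9 CPM in hen2-4, 35.3 and 33.5 in rrp4-2 and 40.6 and 38.7 in L57, with no overlap between the 3 groups. The log2 fold change was -0.31 ± 0.056 in hen2-4 over L57 (adjusted p = 0.00115, at most 0.0284 over 12 alternatives) and -0.21 ± 0.056 in rrp4-2 over L57 (adjusted p = 0.0165, at most 0.177). Leaving out L57 replicate 1, L57 replicate 2 or rrp4-2 replicate 2 ended the rrp4-2 call (log2 -0.17, -0.23 and -0.16), and no single library ended that in hen2-4.

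The other calls were near the threshold. RBP45A had 32.7 and 34.7 CPM in hen2-4, against 38.6 and 39.3 in L57 (log2 -0.21 ± 0.071, adjusted p = 0.0429). RBP45C had 81.5 and 88.1 CPM in hen2-4, against 71.9 and 75.0 in L57 (log2 0.21 ± 0.072, adjusted p = 0.044), and UBP1A 58.4 and 62.4 CPM in hen2-4, against 49.9 and 53.6 in L57 (log2 0.22 ± 0.078, adjusted p = 0.0473). UBP1B had 34.2 and 36.8 CPM in rrp4-2, against 40.4 and 40.9 in L57 (log2 -0.20 ± 0.059, adjusted p = 0.027). The calls of RBP45A and UBP1A were lost whichever of their 4 libraries was left out (log2 -0.25 to -0.16 and 0.18 to 0.28). That of RBP45C was lost without L57 replicate 1, L57 replicate 2 or hen2-4 replicate 2 (log2 0.18, 0.25 and 0.16), and that of UBP1B without L57 replicate 1, L57 replicate 2 or rrp4-2 replicate 1 (log2 -0.20, -0.18 and -0.14). RBP45B differed by -0.0046 in hen2-4 over L57 (95% interval -0.17 to 0.16) and by -0.10 in rrp4-2 over L57 (-0.27 to 0.06), where 3 of 12 alternatives called a fall (log2 -0.26 with DESeq2 size factors and in the Wald test, -0.22 after thinning). In rrp4-2 over hen2-4, edgeR and DESeq2 each called 0 of the 10 genes, and 0 had an unadjusted edgeR p under 0.05, where 9.52% of all genes were called.

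**Figure D5:**
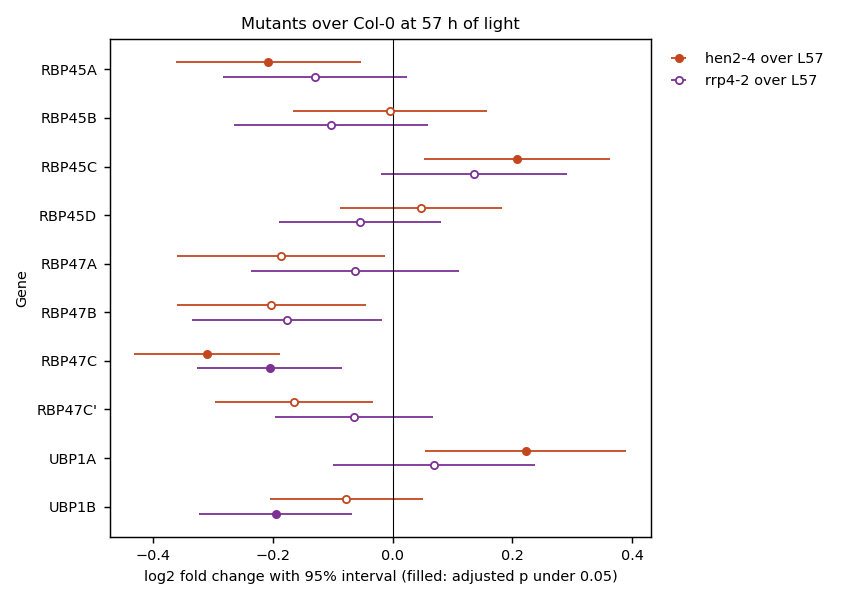
Log2 fold change of each of the 10 genes in hen2-4 over L57 and in rrp4-2 over L57 with its 95% interval, filled where the adjusted p is under 0.05. RBP47C lies lowest in both comparisons, at -0.31 and -0.21, and all values lie between -0.31 and 0.22.

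Shares within the 10 genes were also compared in the mutants. RBP45B made up 31.2 and 31.4% of their summed TPM in hen2-4, 29.6 and 30.4% in rrp4-2 and 30.2 and 31.4% in L57. The RBP47C' to RBP47C ratio was 0.662 and 0.662 in hen2-4, 0.658 and 0.664 in rrp4-2 and 0.609 and 0.588 in L57. RBP47A.3 had 9.25 and 11.6% of the RBP47A counts in hen2-4, 6.75 and 7.98% in rrp4-2 and 4.23 and 5.35% in L57, without overlap with L57 but also without a call by diffSpliceDGE.

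A de novo transcript from the authors' annotation lies antisense to RBP47A at chr1:18357971-18358961 (+ strand), starting at the base next to intron 5. It had 832 and 924 counts in hen2-4, 620 and 869 in rrp4-2 and 46 and 36 in L57. Relative to RBP47A that was 6.72 and 6.37% in hen2-4, 4.54 and 5.69% in rrp4-2 and 0.710 and 0.536% in L57. The mean CPM was 9.21-fold higher in hen2-4 and 7.88-fold higher in rrp4-2 than in L57, with no overlap, but the transcript-level fit did not call either (adjusted p = 0.507 and 0.56). Its spread in other groups was wide, with 491 and 0 counts in S24 and 188 and 0 in L6. RBP47A itself had 56.5 and 65.5 CPM in hen2-4, 64.3 and 68.7 in rrp4-2 and 69.5 and 69.4 in L57, and neither mutant was called (adjusted p = 0.099 and 0.636). Of 12 alternatives, 6 called a fall in hen2-4 (adjusted p 0.000115 to 0.651 over the 12), among them leaving out hen2-4 replicate 2 (log2 -0.29), and 2 called a fall in rrp4-2 (adjusted p 0.0153 to 1.0), DESeq2 size factors and the DESeq2 Wald test.

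A second antisense transcript, over the 5′ part of RBP47C at chr1:17424887-17425172, had 36 and 36 counts in S24, against 0 and 0 in DS. It was at least 2.91-fold higher in S24 than a floor of 3 counts per DS library (adjusted p = 0.000303). It fell in S72 over S24, with 7 and 10 counts in S72 (log2 -2.02, adjusted p = 0.0241), and had 1 count in each library of L6, L26 and L57. At most 0.312% of RBP47C counts corresponded to it. It and the retained-intron isoform RBP47C.2 were each highest in S24. Another de novo transcript starts 200 bases beyond the 3′ end of RBP45A, on the same strand, at chr5:22298595-22299050. It lies wholly within the protein-coding gene AT5G54910 (chr5:22298453-22301859, - strand) and is antisense to that gene. The de novo transcript had 48 and 45 counts in S24, against 3 and 4 in DS, a difference that did not pass (adjusted p = 0.0659). It had 2 to 30 counts in the libraries of the other groups. The library kit keeps strand, but the sources used here do not say whether the counting used it.

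Genes that work with these proteins were described from lists chosen with earlier results of these data known, and counted under TMM alone. Of 8 genes for UBP1C and for proteins that bind or resemble UBP1, 6 rose and 0 fell in hen2-4 over L57, where 19.6% of all genes rose and 10.6% fell. In rrp4-2 over L57 5 rose and 1 fell, where 18% of all genes rose and 8.54% fell. The UBA genes encode partners of UBP1 in the nucleus. UBA1A had a mean of 27.8 CPM in hen2-4, 22.2 in rrp4-2 and 10.5 in L57, a log2 fold change of 1.41 ± 0.084 in hen2-4 and 1.09 ± 0.084 in rrp4-2 (adjusted p = 2.14e-07 and 2.9e-06). UBA2C had 43.3 CPM in hen2-4, 45.6 in rrp4-2 and 17.0 in L57 (log2 1.35 and 1.43, adjusted p = 7.52e-08 and 1.3e-07). UBA1B rose by 1.09 and 1.03 and UBA2B by 0.90 and 0.85 in hen2-4 and rrp4-2. The list's median log2 fold change was 0.90 in hen2-4 and 0.83 in rrp4-2, against -0.12 and -0.08 for the 10 genes, a difference that was not tested. In S24 over DS 7 of these 8 rose (median 1.27) and 0 fell, where 28.9% of all genes rose (median 0.22), and 3 of the 10 genes rose and 3 fell (median 0.08).

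In L57 over L26, in which the 10 genes and 35.5% of all genes fell, 9 of 9 genes of the U1 snRNP and its partners fell, among them LUC7RL (log2 -0.88 ± 0.068). So did 10 of 11 genes of processing bodies, where mRNA is decapped, with LSM1B at -1.03 ± 0.080, and 6 of 8 genes for poly(A)-binding and stress granule proteins, with the Tudor nuclease genes TSN2 at -1.51 ± 0.066 and TSN1 at -1.14 ± 0.058. The medians of these lists were -0.81, -0.48 and -1.17, against -0.11 over all genes. In hen2-4 over L57, 4 of the 9 U1 genes rose (LUC7RL 0.68 ± 0.068, PRP40A 0.47 ± 0.099), 3 of the 11 processing body genes rose (PAT1 0.49 ± 0.055) and 3 of the 8 poly(A)-binding and stress granule genes fell (PAB4 -0.35 ± 0.067). In rrp4-2 over L57, 3 of 9, 2 of 11 and 1 of 8 rose and 0 fell, so the processing body list was near the 18% of all genes that rose and the poly(A)-binding and stress granule list under it.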

How the data were processed

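Stranded, rRNA-depleted total RNA libraries were sequenced from 16 samples. The count table deposited by the authors holds estimated counts for each transcript. Per their methods and processing notes, reads were trimmed with HOMER 4.11.1, mapped to TAIR10 with STAR 2.7.9a, placing multimapped reads at 1 random location, and used by StringTie 2.1.4 to quantify Araport11 and de novo transcripts. The deposited counts are whole numbers, not scaled between libraries, and estimates rather than tallies, so reads of similar genes or isoforms may be split wrongly. The authors also deposited TPM for 46640 transcripts, used here for levels between genes. Their annotation of de novo transcripts gave coordinates. All de novo coordinates fall within the TAIR10.1 chromosomes, and sequences and gene models came from RefSeq TAIR10.1, which holds the gene positions of TAIR10. Columns of the tables were matched to samples by name, 1 of them spelling rrp4 differently.

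Counts were summed per locus and analysed in R 4.3.3 with edgeR 4.0.16 (TMM, filterByExpr, glmQLFit and glmQLFTest, 1 fit of all 16 libraries, 8 residual degrees of freedom), two-sided, with Benjamini-Hochberg adjustment within each of 9 comparisons over 28824 genes or 46804 transcripts and a threshold of 0.05. Comparisons that share a group, such as both mutants over L57, are not independent. The SE was taken as |log2 fold change| over the root of F. Isoform shares were tested with diffSpliceDGE and have no error beyond the spread of their 2 libraries. Values outside the fits were not tested, since with 2 libraries a side the smallest exact permutation p is 0.33. Floors of 3 counts cover counting error only. Replicate numbers do not pair samples: deviations of same-numbered libraries correlated from -0.33 to 0.21 over 28 pairs of groups. Counts of replicates differed by more than sampling noise in each group, and by far the most in DS. Chi-square per degree of freedom was 694 in DS and 25.2 to 109 in the other groups. The correlation of replicates was 0.974 in DS and 0.983 to 0.993 in the others. Since 1 fit shares its spread over all groups, p-values of S24 over DS and L57 over DS may understate the spread of DS.

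The text names the 10 genes and their transcripts, de novo transcripts within 1000 bases, for each gene the 3 genes of at least 10 CPM whose group means correlate best with it, and at most 4 genes per list by size of change. The members and 8 lists were chosen with earlier results of these data known. Alternatives were DESeq2 size factors, the DESeq2 1.42.0 Wald test, library totals, no filter, no organellar and rRNA features, the 4 libraries compared, a replicate block, thinning to 75618077 counts and each library left out. A share test on 2 counts per library and fold changes in TPM were added after the data were seen. On counts simulated for S72 over S24, the test found 96 of 100 genes that had been changed 2-fold and 28 of 100 such transcripts. Of 100 isoforms per size of change, diffSpliceDGE recovered 0 changed 2-fold, 0 changed 4-fold and 33 changed 16-fold. It also called 21 unchanged isoforms. The share test on 2 counts per library recovered 0, 11 and 50, and called 1 unchanged isoform. In that comparison few changes of share can thus be seen with 2 libraries, and adjusted p-values of diffSpliceDGE may understate its false calls. S24 over DS and L57 over L26 were not simulated, so these rates need not apply to them.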

Additional observations from a re-analysis of the deposited data

How the results depend on the processing

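The falls of RBP47A, RBP47B and RBP45A in L57 over L26 and the rise of RBP47B in S24 over DS passed under all 12 alternatives with a test. The counts that follow are given without the share of all genes or transcripts called under the same alternative. Library totals in place of TMM called 10 genes in S24 over DS, 1 in rrp4-2 over L57 and 2 transcripts in hen2-4 over L57. DESeq2 size factors called 8 genes in rrp4-2 over L57, and 6 transcripts in hen2-4 and 4 in rrp4-2 over L57. The DESeq2 Wald test called 8 genes and 6 transcripts in rrp4-2 and 6 transcripts in hen2-4. Without organellar and rRNA features 4 genes were called in rrp4-2. Without a filter 1 gene and 0 transcripts were called in hen2-4. Thinning called 6 genes and 2 transcripts in rrp4-2 and 5 transcripts in hen2-4. The 4 libraries alone called 4 genes in rrp4-2, 0 transcripts in hen2-4 and 0 shares in L57 over L26. A replicate block called 2 genes in hen2-4 and 0 shares in L57 over L26, and left 86 of 90 gene, 150 of 153 transcript and 116 of 117 share results on their side of the threshold. The added share test called 6 shares in S24 over DS and 0 in L57 over L26. Leaving out 1 library gave 1 to 2 genes in hen2-4 and 0 to 1 in rrp4-2, 5 to 9 transcripts in S24 over DS, 0 to 1 in hen2-4 and 0 to 2 in rrp4-2, and 1 to 3 shares in S24 over DS and 0 to 1 in L6 over S72, L26 over L6 and L57 over L26.

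Signs turned as follows. Under library totals, S24 over DS was 0.26 for RBP45B and its transcript RBP45B.2, 0.37 for RBP47C and 0.31 for UBP1B and UBP1B.1, L6 over S72 was 0.17 for RBP45B and 0.16 for RBP45B.2, and L57 over DS was 0.020 for UBP1A. In TPM, S24 over DS was 0.33 for RBP45B, 0.41 for RBP47C and 0.38 for UBP1B, and L6 over S72 was 0.20 for RBP45B. Without organellar and rRNA features, S24 over DS was 0.037 for RBP47C and S72 over S24 was -0.082 for UBP1B. With DESeq2 size factors and in the Wald test, L57 over L26 was 0.16 for RBP45B. The range of RBP45B was 0.93 under library totals and 0.49 without organellar and rRNA features, and 0.63 to 0.74 with 1 library left out. The cause was not tested. With 2 libraries per group and estimated counts, isoform shares are the least certain values.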
